A study of Rattus norvegicus with 60 samples.

Results

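The genes described here are 34 members of 2 linked groups, the cytosolic aminoacyl-tRNA synthetases and the genes of the amino acid stress response that the transcription factor ATF4 commands. They were chosen by symbol and known function, with earlier results of these data known. The shares of all genes given beside the members' counts are therefore no test of the list. Of the 34 members 19 are synthetases, and 15 are transcription factors, enzymes, transporter chains and stress regulators. All 34 were present among the 30045 rows of the count table, and all 34 passed the filter on low counts that left 15995 genes to test. The samples are lungs of male Fischer 344 rats, an inbred strain, bought at 3 months of age. In each of 5 sets, 6 rats inhaled an aerosol of multi-walled carbon nanotubes (MWCNT) in a whole-body chamber for 6 hours a day on 3 days, and 6 other rats breathed filtered air over the same time. Lungs were taken 1 day after the last exposure, and RNA from a piece of lung was made into stranded mRNA libraries. The groups are MWCNT_011, MWCNT_022, MWCNT_045, MWCNT_090 and MWCNT_180, with cumulative doses of 11.25, 22.5, 45, 90 and 180 mg/m3, and their concurrent air groups air_011, air_022, air_045, air_090 and air_180. The submitters labelled 7 libraries as outliers, and leaving these out gave 5, 6, 6, 4 and 5 libraries in the MWCNT groups and 6, 6, 3, 6 and 6 in the air groups, in order of dose. Every group is whole lung tissue of a single strain and sex at a single time point. Each dose was a separate set, so that dose and set cannot be told apart.

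Aminoacyl-tRNA synthetases join each amino acid to its transfer RNA and so supply the ribosome. When a cell runs short of an amino acid, or its endoplasmic reticulum is overloaded, kinases phosphorylate the initiation factor eIF2 on its alpha subunit; most translation slows, while translation of ATF4 increases, and ATF4 then raises genes for synthetases, for amino acid uptake and for making asparagine, serine and one-carbon units. Because ATF4 is set largely at the level of translation, the amount of its own mRNA is not a direct readout of its activity. Growth signals through mTORC1 can also raise ATF4 output, and dividing cells, activated leukocytes and surfactant-secreting alveolar type 2 cells of the lung all draw heavily on amino acids.

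ATF4 binds with C/EBP partners to a composite DNA element often written TGATGNAA, known as the C/EBP-ATF response element or amino acid response element. The element was searched on both strands in the RefSeq promoter windows of the GRCr8 assembly, which run from 250 bases before to 50 bases after a gene start. Of the 34 members, 31 had a window and 3 (Gars, Rars and Dars) did not. The letters were found in 8 of those 31 members (25.8%), against 3.98% of all 33469 windows and 4.16% of 27457 genes. Of the 9 matches, 8 are shown because they mark which members carry the letters beside their start. Capitals mark the element, read along the strand of the gene, so that TTNCATCA is the element on the other strand.
Aars, chr19:55908480-55908509, plus strand, 10 bases after the start: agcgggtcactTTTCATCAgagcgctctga
Cars, chr1:208225334-208225363, minus strand, 18 bases after the start: cggcgccgcggTTGCATCAgattctggaaa
Iars, chr17:15193658-15193687, minus strand, 24 bases before the start: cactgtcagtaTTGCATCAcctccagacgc
Nars, chr18:60275778-60275807, minus strand, 14 bases before the start: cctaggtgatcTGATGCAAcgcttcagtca
Tars, chr2:62114811-62114840, minus strand, 27 bases before the start: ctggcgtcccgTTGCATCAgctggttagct
Yars, chr5:146820190-146820212, plus strand, 39 bases after the start: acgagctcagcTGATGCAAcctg
Chac1, chr3:126795953-126795982, plus strand, 167 bases before the start: cttctccgccgTTGCATCActcctgctagg
Trib3, chr3:161275536-161275565, minus strand, 21 bases before the start: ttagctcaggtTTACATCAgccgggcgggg
Over all 9 matches, 7 had the same letters TGATGCAA on one strand or the other, and 6 of the 8 members were synthetases. These are matches of letters in a reference sequence and not measured binding sites. The members were chosen as synthetases and genes of the ATF4 response, so the higher share among them is no test of the list. Elements outside these windows were not searched.

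The 53 library totals ran from 8099154 to 16176867 counts. Levels are given in counts per 1000000 (CPM) scaled by the trimmed mean of M-values, and compare a gene across libraries, not 1 gene with another, since gene lengths were not used. The lung label held in the libraries used. There the surfactant gene Sftpc stood between 7986 and 14718 counts per 1000000 of the library total, without that scaling. In the same libraries 6 liver transcripts together took at most 0.0335% of the counts. In 3 of the libraries with an outlier label these transcripts took 18.1% to 21.2%. In each set the exposed rats were set against the air rats of that set with edgeR's quasi-likelihood test, and calls were made at p under 0.05 after Benjamini-Hochberg adjustment over all 15995 genes. Rats were kept 3 to a cage and the labels do not say which shared one, so p-values measure the spread between these libraries.

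The genes that rose at the highest dose were the amino acid transporter chain Slc7a5, the serine and mitochondrial one-carbon enzymes Phgdh, Shmt2 and Mthfd2, the stress genes Chac1 and Trib3, and 10 of the 19 synthetases. Psat1, another serine enzyme, was called higher in set 022 and was not called in set 180. In the main fit the mRNAs for the regulators Atf4, Atf5, Ddit3 and Sesn2 were called in no set against concurrent air. Nor were those for asparagine synthetase Asns and the partner chain Slc3a2, and Ddit4 was the only member called lower. In MWCNT_180 against air_180, 16 of 34 members were called higher, where 12% of all tested genes were, and 1 was called lower, where 10.9% were. In MWCNT_090 against air_090, 9 members were called higher (6.82% of all genes) and 0 lower (4.28%). In MWCNT_045 against air_045, 2 were called higher (3.32%) and 0 lower (2.09%). In MWCNT_022 against air_022, 7 were called higher (5.18%) and 1 lower (1.62%). In MWCNT_011 against air_011, 0 were called higher (0.025%) and 0 lower (0%) by edgeR and by DESeq2, and 5 members had an unadjusted edgeR p under 0.05. Over the 34 members, 17 were called higher in at least 1 set and 17 in none. The share of all genes called in at least 1 set was not counted, so these counts are not a result about the members.

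The 9 members called higher in set 090 were all called higher in set 180, and 6 of the 7 called higher in set 022 were. Slc7a5 and Mthfd2 were called in 4 of the 5 sets, Phgdh in 3 and 9 members in 2. The shares of all genes called in several sets were not counted, so these counts are likewise not a result about the members. The median log2 fold change of the 34 members, exposed minus air, was 0.05, 0.09, 0.06, 0.14 and 0.16 from the lowest to the highest dose, and that of all tested genes lay between -0.01 and 0.01. At 180 mg/m3, 29 of the 34 members were above 0, where 48.7% of all genes were. In 12 members every MWCNT_180 library was above every air_180 library, a pattern that 7.32% of all genes showed, and 0 members had it in the other direction (5.95%). The same held for 9 members in set 090 (6.69% of all genes), 4 in set 045 (7.53%), 2 in set 022 (1.96%) and 0 in set 011 (0.444%). All exposed libraries were below all air libraries for 0 members in sets 090 (4.82%), 045 (6.29%), 022 (0.375%) and 011 (0.256%).

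Some of these counts rested on few libraries. In set 022, 3 members instead of 7 were called higher without MWCNT_022 replicate 5, and 4 without MWCNT_022 replicate 6. With set 022 fitted alone, 3 were called higher, and Yars, Farsb, Phgdh, Shmt2 and Ddit4 lost their calls there (adjusted p = 0.115 to 0.319) at log2 fold changes of 0.20, 0.19, 0.51, 0.24 and -1.36, against 0.20, 0.19, 0.51, 0.24 and -1.36 with all sets in the model. In set 045 the count of 2 became 0 without air_045 replicate 4, and 1 without air_045 replicate 1 or 2 or MWCNT_045 replicate 1, 5 or 6. In set 090 the count of 9 became 5 without air_090 replicate 6 or MWCNT_090 replicate 3. In set 180, leaving out any of the 11 libraries kept the count between 14 and 19.

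**Figure D1:**
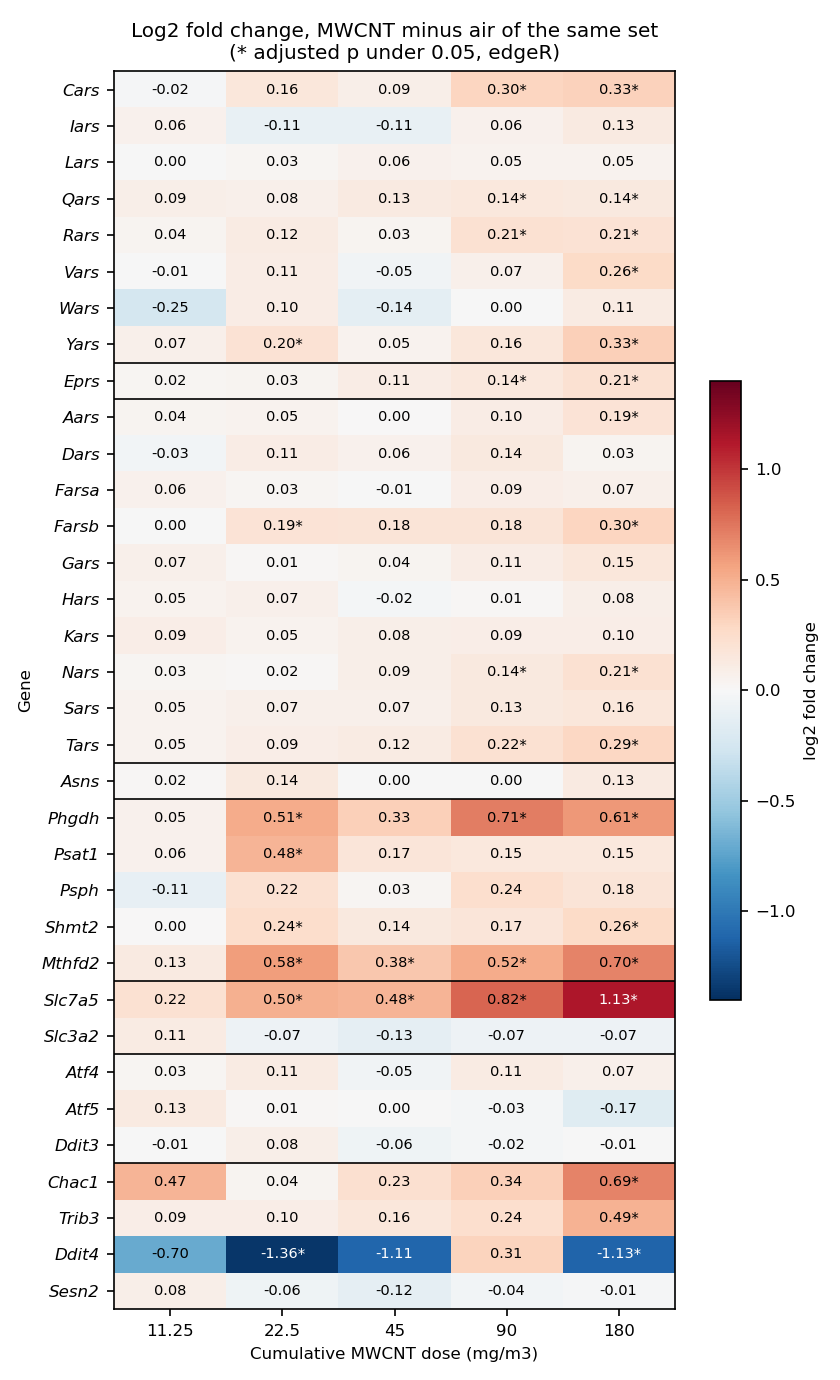
Log2 fold change of the 34 members (rows, grouped by role) in the 5 sets (columns, by cumulative dose in mg/m3), MWCNT minus air of the same set, with a star where edgeR's adjusted p was under 0.05. Slc7a5 reached 1.13 at 180 mg/m3, the synthetases lay between 0.03 and 0.33 there, and Ddit4 was below 0 in 4 of the 5 sets.

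Marker genes of other cell types were called in the same lungs. In set 180, 6 of 6 proliferation markers, 6 of 6 neutrophil markers, 4 of 4 tested monocyte markers, 2 of 4 tested macrophage markers (Cd68 and Itgax, with Mrc1 at -0.28 and Csf1r at -0.06 not called) and 3 of 6 alveolar type 2 markers were called higher, and 4 of 6 endothelial markers were called lower. The summed proliferation markers stood between 213 and 226 CPM in MWCNT_180, against 100.7 to 121 CPM in air_180; the neutrophil markers between 249 and 326 CPM, against 128 to 213 CPM; and the monocyte markers between 2300 and 2667 CPM, against 1814 to 2151 CPM. The macrophage markers summed to 672 to 703 CPM in MWCNT_180 and 594 to 793 CPM in air_180, the alveolar type 2 markers to 27182 to 28873 CPM and 20414 to 26735 CPM, and the endothelial markers to 3109 to 3533 CPM and 3690 to 4085 CPM. Of 6 T cell markers 1 was called lower, of 5 B cell markers 0 were called, and of 6 liver markers 1 was called higher. Over all tested genes 12% were called higher in set 180 and 10.9% lower. The macrophage gene Marco held no count in 45 of 53 libraries, and the macrophage gene Adgre1 and the monocyte genes Ccr2 and Ly6c were not analysed here. The part of these changes in the members' results was not tested, and in whole lung, fewer cells of a type and less RNA per cell cannot be told apart.

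Slc7a5 encodes LAT1, the chain that carries leucine and other large neutral amino acids in exchange for glutamine, and it had the highest log2 fold change of the members in sets 045, 090 and 180; in set 022 Mthfd2 and Phgdh were above it. Slc7a5 had 15.7, 17.2, 18.95, 15.3 and 17.5 CPM in MWCNT_011, against 11.9 (lowest), 14.4 (median) and 16.8 CPM (highest) in air_011. Slc7a5 had 18.1 (lowest), 19.4 (median) and 24.54 CPM (highest) in MWCNT_022, against 12.2 (lowest), 14.0 (median) and 16.5 CPM (highest) in air_022. Slc7a5 had 17.3 (lowest), 21.8 (median) and 24.3 CPM (highest) in MWCNT_045, against 15.7, 16.7 and 12.9 CPM in air_045. The groups overlapped in the lowest set and did not overlap in the next 2, where the lowest exposed library stood above the highest air library. Slc7a5 had 24.1, 25.6, 27.2 and 24.45 CPM in MWCNT_090, against 13.3 (lowest), 14.1 (median) and 16.6 CPM (highest) in air_090. Slc7a5 had 30.9, 29.2, 32.2, 31.3 and 36.4 CPM in MWCNT_180, against 13.9 (lowest), 14.6 (median) and 15.6 CPM (highest) in air_180. In both sets every exposed library was above every air library, and the means of the 5 air groups lay between 14.2 and 15.1 CPM. The log2 fold changes were 0.22 (SE 0.09, adjusted p = 0.999) in set 011, 0.50 (SE 0.09, adjusted p = 4.35e-05) in set 022, 0.48 (SE 0.10, adjusted p = 0.00236) in set 045, 0.82 (SE 0.09, adjusted p = 4.66e-09) in set 090 and 1.13 (SE 0.09, adjusted p = 1.99e-14) in set 180. The last is a 2.18-fold higher level with a 95% interval of 0.95 to 1.30 on the log2 scale. The call in set 045 was lost without air_045 replicate 4, with a log2 fold change of 0.38 and an adjusted p of 0.0735.

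Slc3a2, the heavy chain (4F2hc, CD98) that pairs with Slc7a5 and brings it to the cell surface, did not pass the test in any set. Slc3a2 had 267, 256, 262, 259 and 236 CPM in MWCNT_180, against 254 (lowest), 268 (median) and 286 CPM (highest) in air_180. The groups overlapped, and the log2 fold change was -0.07 (SE 0.05, 95% interval -0.17 to 0.02, adjusted p = 0.287). In the other sets it was 0.11, -0.07, -0.13 and -0.07 from the lowest dose upward, with adjusted p from 0.18 to 0.999. The ratio of the 2 chains was looked at after these values had been seen, and is given without a test. Slc7a5 CPM were 11.4% to 15.4% of Slc3a2 CPM in MWCNT_180 and 5.07% to 6.12% in air_180, and 5.93% to 7.04% in MWCNT_011 and 4.96% to 6.83% in air_011.

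**Figure D2:**
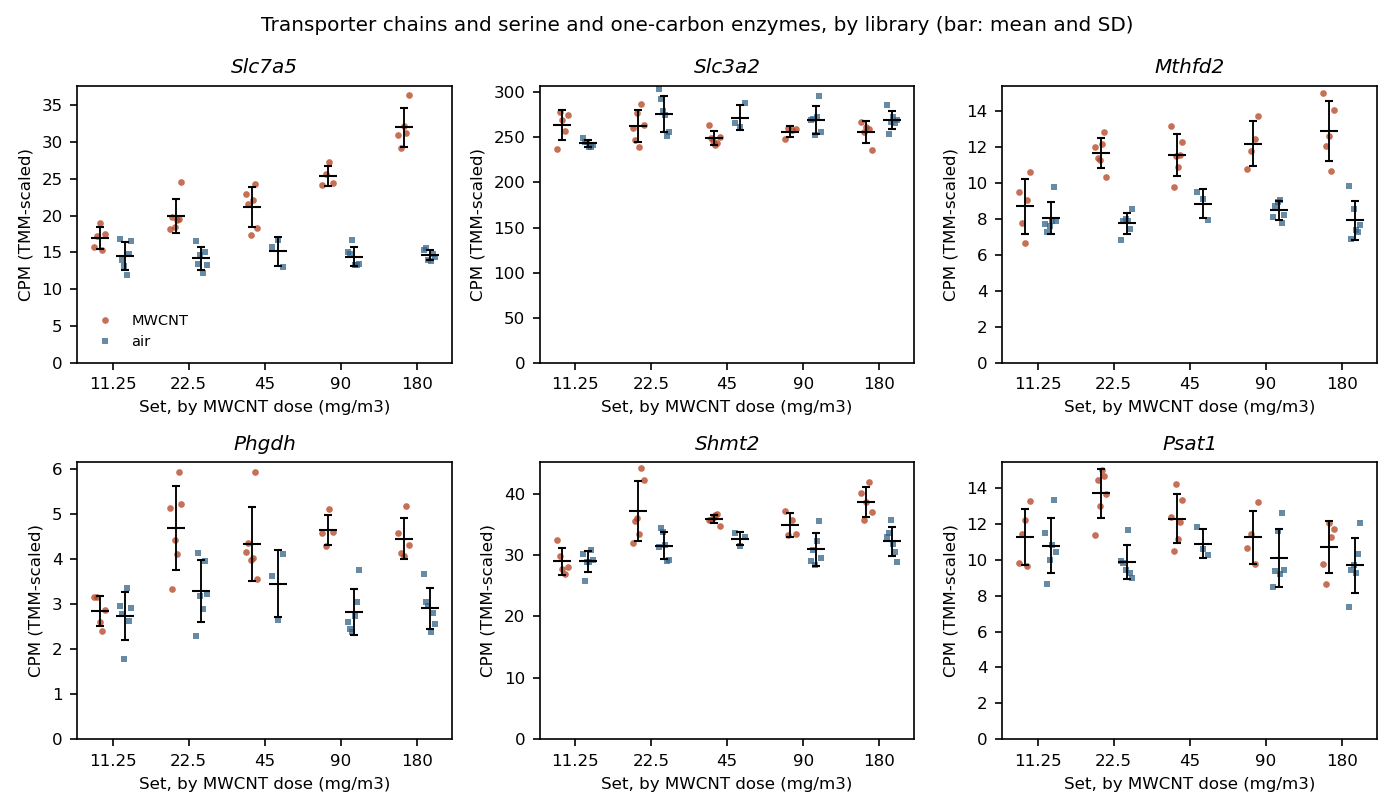
Level of Slc7a5, Slc3a2 and 4 serine and one-carbon enzymes in each library (CPM, linear axis from 0) by set, with MWCNT libraries left of the air libraries of the same set and bars for the mean and SD. Slc7a5 averaged 32.0 CPM in MWCNT_180 and 14.6 CPM in air_180, while Slc3a2 averaged 256 and 269 CPM there.

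The enzymes of serine synthesis and of the mitochondrial one-carbon pathway turn a glycolytic intermediate into serine (Phgdh, Psat1, Psph) and then pass its carbon to folate (Shmt2, Mthfd2). Of these 5, 4 were called higher in set 022, 1 in set 045, 2 in set 090 and 3 in set 180, and all 5 were above 0 in each of these sets. The group's median log2 fold change was 0.48 in set 022, where Psat1 was the median gene, and 0.26 in set 180, where Shmt2 was. The median was thus not ordered by dose. Phgdh, Shmt2 and Mthfd2 had higher changes in set 180 than in set 022, and Psat1 and Psph had lower ones. The shares of all genes called higher in sets 022, 045, 090 and 180 were 5.18%, 3.32%, 6.82% and 12%. Of 6 proliferation markers, 6, 5, 6 and 6 were called higher in the same sets, and their sum stood at 144 to 182 CPM in MWCNT_022, against 80.7 to 112.7 CPM in air_022. It stood at 161.65 to 175 CPM in MWCNT_045 and 106 to 111.5 CPM in air_045, and at 171 to 193 CPM in MWCNT_090 and 102.4 to 116 CPM in air_090. The part of these markers in the enzymes' changes was not tested.

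Mthfd2, the mitochondrial methylenetetrahydrofolate dehydrogenase that is abundant in dividing and embryonic cells, was called in 4 sets. Mthfd2 had 10.3 (lowest), 11.7 (median) and 12.8 CPM (highest) in MWCNT_022, against 6.81 (lowest), 7.88 (median) and 8.52 CPM (highest) in air_022. Mthfd2 had 9.74 (lowest), 11.5 (median) and 13.2 CPM (highest) in MWCNT_045, against 9.46, 9.10 and 7.94 CPM in air_045. No exposed library of either set fell within its air group. Mthfd2 had 10.7, 11.8, 12.4 and 13.7 CPM in MWCNT_090, against 7.78 (lowest), 8.46 (median) and 9.04 CPM (highest) in air_090. Mthfd2 had 14.96, 12.1, 12.6, 10.7 and 14.0 CPM in MWCNT_180, against 6.88 (lowest), 7.505 (median) and 9.80 CPM (highest) in air_180. Again the groups were apart in both sets. The log2 fold changes were 0.58 (SE 0.09, adjusted p = 1.05e-05), 0.38 (SE 0.11, adjusted p = 0.0335), 0.52 (SE 0.10, adjusted p = 0.000227) and 0.70 (SE 0.10, adjusted p = 2.14e-07) from 22.5 to 180 mg/m3. In set 045 the call was lost without any of 6 libraries (air_045 replicates 1, 2 and 4 and MWCNT_045 replicates 1, 5 and 6), with adjusted p up to 0.237. Mthfd2 had 9.47, 7.76, 6.64, 9.02 and 10.6 CPM in MWCNT_011, against 7.28 (lowest), 7.78 (median) and 9.78 CPM (highest) in air_011. In that set MWCNT_011 replicate 4, at 6.64 CPM, was below all 6 air libraries and the log2 fold change was 0.13 (SE 0.10, adjusted p = 0.999).

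Phgdh, the dehydrogenase that opens the serine pathway, was called in sets 022, 090 and 180. Phgdh had 4.59, 4.28, 5.11 and 4.60 CPM in MWCNT_090, against 2.38 (lowest), 2.67 (median) and 3.75 CPM (highest) in air_090. Phgdh had 4.57, 4.13, 4.06, 5.18 and 4.31 CPM in MWCNT_180, against 2.39 (lowest), 2.88 (median) and 3.68 CPM (highest) in air_180. The groups did not overlap in either set, and the log2 fold changes were 0.71 (SE 0.16, adjusted p = 0.00142) and 0.61 (SE 0.16, adjusted p = 0.00252). Phgdh had 3.33 (lowest), 4.78 (median) and 5.93 CPM (highest) in MWCNT_022, against 2.30 (lowest), 3.21 (median) and 4.14 CPM (highest) in air_022. These groups overlapped, and the change of 0.51 (SE 0.14, adjusted p = 0.0176) lost its call without air_022 replicate 1, MWCNT_022 replicate 5 or MWCNT_022 replicate 6, with adjusted p of 0.0547 to 0.0827. In set 045 the change was 0.33 (SE 0.17, adjusted p = 0.317) and in set 011 it was 0.05 (SE 0.16, adjusted p = 0.999).

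Psat1, the aminotransferase of the middle step, was called in set 022 and in no other set. Psat1 had 11.4 (lowest), 14.0 (median) and 15.01 CPM (highest) in MWCNT_022, against 9.01 (lowest), 9.65 (median) and 11.7 CPM (highest) in air_022. Only the highest air library, replicate 4, lay above the lowest exposed one, and the log2 fold change was 0.48 (SE 0.11, adjusted p = 0.00177). Psat1 had 9.77, 8.67, 12.1, 11.3 and 11.7 CPM in MWCNT_180, against 7.35 (lowest), 9.57 (median) and 12.1 CPM (highest) in air_180. Here the groups overlapped over most of their range, with a change of 0.15 (SE 0.12, 95% interval -0.08 to 0.38, adjusted p = 0.399). The difference of the Psat1 effect among the 5 sets did not pass the test (adjusted p = 0.385). Psph, the phosphatase of the last step, was called in no set, with log2 fold changes from -0.11 to 0.24.

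Shmt2, the mitochondrial serine hydroxymethyltransferase, was called in sets 022 and 180. Shmt2 had 40.2, 35.8, 38.6, 41.9 and 36.99 CPM in MWCNT_180, against 28.9 (lowest), 32.3 (median) and 35.7 CPM (highest) in air_180. The groups did not overlap, although the lowest exposed library, at 35.8 CPM, was next to the highest air library, at 35.7 CPM, and the change was 0.26 (SE 0.07, adjusted p = 0.00257). In set 022 the change was 0.24 (SE 0.06, adjusted p = 0.011), and the call was lost without MWCNT_022 replicate 5 (adjusted p = 0.0838) or replicate 6 (adjusted p = 0.0651). In sets 011, 045 and 090 the changes were 0.00, 0.14 and 0.17, with adjusted p of 0.999, 0.369 and 0.109.

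At the highest dose 10 of the 19 synthetases rose by small amounts, and the other 9 did not pass the test. All 19 had a log2 fold change above 0 in set 180, between 0.03 and 0.33 with a median of 0.16, and 0 were called lower. Over all tested genes 48.7% were above 0 there, 12% were called higher and 10.9% lower. In sets 011, 022, 045 and 090, 13, 18, 14 and 18 of the 19 were above 0. The shares of all genes above 0 were 52.8%, 49.2%, 49.3% and 48.3%. Iars was at -0.11 in sets 022 and 045, without a call. By catalytic fold, 5 of 8 class I enzymes (Cars, Qars, Rars, Vars and Yars), 4 of 10 class II enzymes (Aars, Farsb, Nars and Tars) and Eprs, which joins a class I and a class II enzyme in a single chain, were called. Of the 7 synthetases that sit in the multisynthetase complex 3 were called (Eprs, Qars and Rars), and of the 12 outside it 7 were. Farsb and Farsa are the 2 subunits of phenylalanyl-tRNA synthetase; Farsb was called, and Farsa had a change of 0.07 (SE 0.06, adjusted p = 0.449).

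Yars, for tyrosine, had the highest log2 fold change of the synthetases. Yars had 66.7, 61.9, 63.4, 62.9 and 57.9 CPM in MWCNT_180, against 46.5 (lowest), 48.4 (median) and 55.1 CPM (highest) in air_180. The groups did not overlap, and the change was 0.33 (SE 0.05, adjusted p = 2.73e-06), a 1.26-fold higher level. Yars had 52.3 (lowest), 57.1 (median) and 69.8 CPM (highest) in MWCNT_022, against 48.2 (lowest), 50.6 (median) and 56.5 CPM (highest) in air_022. Here MWCNT_022 replicate 5 was highest at 69.8 CPM; without it the change of 0.20 (SE 0.05, adjusted p = 0.00529) became 0.14 with an adjusted p of 0.0582. In set 090 all 4 exposed libraries were above all air libraries and the change was 0.16 (SE 0.06, adjusted p = 0.0512), which DESeq2 called (adjusted p = 0.0371).

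Cars, for cysteine, and Tars, for threonine, were called in both of the highest sets. Cars had 35.5, 34.2, 36.1 and 38.7 CPM in MWCNT_090, against 25.02 (lowest), 30.0 (median) and 30.9 CPM (highest) in air_090. Cars had 38.7, 37.1, 35.9, 33.4 and 36.0 CPM in MWCNT_180, against 23.2 (lowest), 29.03 (median) and 32.6 CPM (highest) in air_180. The groups were apart in both sets, with changes of 0.30 (SE 0.07, adjusted p = 0.00366) and 0.33 (SE 0.07, adjusted p = 0.000341). Tars had 50.03, 54.3, 50.6 and 55.0 CPM in MWCNT_090, against 41.9 (lowest), 44.8 (median) and 49.2 CPM (highest) in air_090. Tars had 51.5, 54.5, 64.2, 54.4 and 55.9 CPM in MWCNT_180, against 41.8 (lowest), 45.7 (median) and 50.3 CPM (highest) in air_180. Tars likewise had no overlap in either set, and changed by 0.22 (SE 0.05, adjusted p = 0.00436) and 0.29 (SE 0.05, adjusted p = 1.57e-05).

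Vars, for valine, was called in set 180 only, and its effect differed among the 5 sets (adjusted p = 0.00555). Vars had 65.1, 71.0, 71.6, 65.4 and 65.9 CPM in MWCNT_180, against 53.5 (lowest), 57.2 (median) and 58.6 CPM (highest) in air_180. Vars had 53.5 (lowest), 63.03 (median) and 65.1 CPM (highest) in MWCNT_045, against 63.02, 63.9 and 63.7 CPM in air_045. In set 180 the groups were apart, and in set 045 they overlapped, with MWCNT_045 replicate 6 lowest at 53.5 CPM. The log2 fold changes were -0.01, 0.11, -0.05, 0.07 and 0.26 (SE 0.04, adjusted p = 6.12e-06 in set 180) from the lowest to the highest dose. The air groups themselves differed in Vars (adjusted p = 0.0154), with means from 55.9 CPM in air_022 to 63.5 CPM in air_045.

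Farsb was called in sets 022 and 180. Farsb had 44.6, 43.8, 45.9, 43.9 and 41.3 CPM in MWCNT_180, against 33.8 (lowest), 35.7 (median) and 36.8 CPM (highest) in air_180. The groups were apart, with a change of 0.30 (SE 0.06, adjusted p = 0.000168). In set 022 the change was 0.19 (SE 0.06, adjusted p = 0.0298), and leaving out any of 8 libraries (air_022 replicates 1, 3, 4, 5 and 6 and MWCNT_022 replicates 1, 5 and 6) lost the call, with adjusted p up to 0.127.

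The other called synthetases in set 180 were Eprs (0.21, SE 0.05, adjusted p = 0.000337), Nars (0.21, SE 0.04, adjusted p = 0.000206), Rars (0.21, SE 0.06, adjusted p = 0.0108), Aars (0.19, SE 0.04, adjusted p = 0.00035) and Qars (0.14, SE 0.04, adjusted p = 0.0117). Eprs and Nars groups did not overlap there, and those of Aars, Qars and Rars did. Without MWCNT_180 replicate 2 the Qars call (adjusted p = 0.0533) and the Rars call (adjusted p = 0.0638) were lost. In set 090 Eprs, Nars, Qars and Rars were called with changes of 0.14, 0.14, 0.14 and 0.21 and adjusted p of 0.0453, 0.0422, 0.0233 and 0.0288. Those 4 calls also rested on few libraries. Eprs lost its call without 9 of the 10 libraries left out in turn (all but air_090 replicate 4), Nars without 8 (all but air_090 replicate 4 and MWCNT_090 replicate 4), Rars without air_090 replicate 1 or 6 or MWCNT_090 replicate 3 or 4, and Qars without air_090 replicate 6 or MWCNT_090 replicate 3 or 4, with adjusted p up to 0.133.

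**Figure D3:**
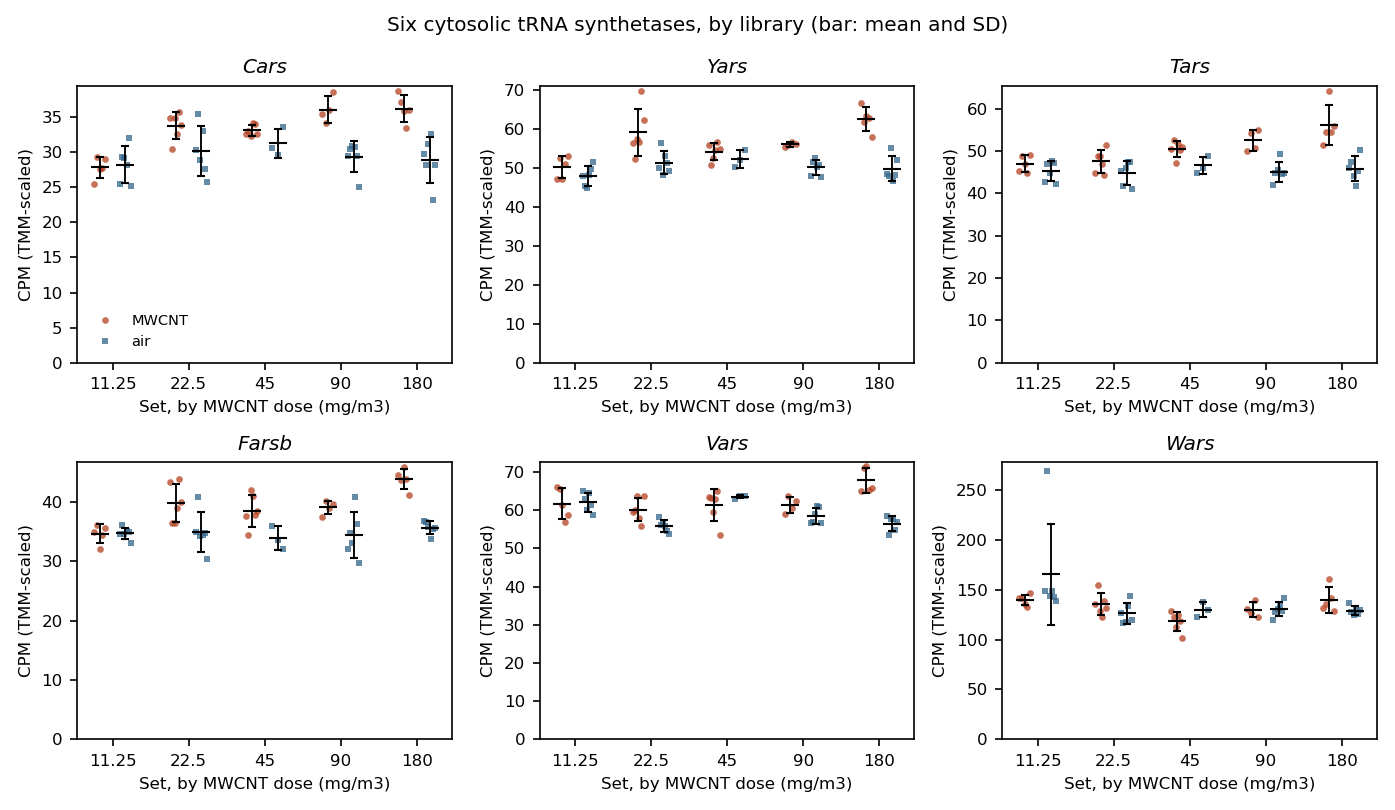
Level of 6 synthetases in each library (CPM, linear axis from 0) by set, MWCNT left of air, with bars for the mean and SD. In set 180 the MWCNT libraries of Cars, Yars, Tars, Farsb and Vars all lie above the air libraries, and in air_011 a single library of Wars stands at 269.5 CPM.

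The 9 synthetases not called in any set were Gars, Hars, Iars, Kars, Lars, Sars, Wars, Dars and Farsa. In set 180 their log2 fold changes ran from 0.03 (Dars, SE 0.05) to 0.16 (Sars, SE 0.06, adjusted p = 0.0598), so that the uncalled synthetases were on the same side of 0 as the called ones. Wars, for tryptophan, is also known as an interferon gamma target in human cells, and 1 library stood apart for it. Wars had 142, 142, 135, 133 and 146.4 CPM in MWCNT_011, against 139 (lowest), 146.6 (median) and 269.5 CPM (highest) in air_011. Air_011 replicate 2 stood alone at 269.5 CPM, and the other 5 air libraries lay between 139 and 149.01 CPM. The log2 fold change in this set was -0.25 (SE 0.10, adjusted p = 0.999). Interferon gamma targets stood high in the same library: Gbp2 and Tap1, looked up after the Wars value was seen, had 249 and 221 CPM there, and the highest of the other 5 libraries had 153 and 145.03 CPM. Wars had 131, 136, 160.7, 141 and 128 CPM in MWCNT_180, against 125 (lowest), 129 (median) and 136 CPM (highest) in air_180. In set 180 the groups overlapped and the change was 0.11 (SE 0.10, adjusted p = 0.465). There 3 of 12 tested interferon gamma targets were called higher, where 12% of all tested genes were. The largest changes were those of the chemokine genes Cxcl11 (2.76) and Cxcl10 (1.82), and the median of the 12 was 0.11. Cxcl11 was near the floor, with at most 1.90 CPM and no count in 4 of 53 libraries. The part of these targets in the Wars values was not tested.

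The motif matches shown above can be set beside these calls. Of the 8 members with a match, 7 were called higher in set 180 (Aars, Cars, Nars, Tars, Yars, Chac1 and Trib3), and Iars, with a change of 0.13 (SE 0.05, adjusted p = 0.0727), was not. Of the 23 members with a window and no match, 8 were called higher, Slc7a5, Mthfd2 and Phgdh among them. In set 090, 3 of the 8 and 5 of the 23 were called higher. Over all tested genes 12% were called higher in set 180 and 6.82% in set 090. The share called among all genes with a match was not counted, so these counts are not a result about the element. Of the 8 members with a match 6 were synthetases, and a link between match and call was not tested.

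The transcription factors at the head of the response showed no call in any set in the main fit of the 53 libraries. Atf4 had 326, 261, 303, 278 and 269.8 CPM in MWCNT_180, against 234 (lowest), 276 (median) and 305 CPM (highest) in air_180. The groups overlapped, and the change was 0.07 (SE 0.09, 95% interval -0.10 to 0.25, adjusted p = 0.619). In the other sets Atf4 changed by 0.03, 0.11, -0.05 and 0.11 from the lowest dose upward, with adjusted p from 0.461 to 0.999. Ddit3 had 26.7, 22.5, 23.9, 19.6 and 22.4 CPM in MWCNT_180, against 19.02 (lowest), 23.2 (median) and 27.6 CPM (highest) in air_180. Ddit3, which encodes the ER stress factor CHOP, overlapped nearly fully between groups, with a change of -0.01 (SE 0.12, 95% interval -0.25 to 0.24, adjusted p = 0.977). Atf5, a relative of ATF4 that is likewise translated under stress, was below 0 in set 180 (-0.17, SE 0.08, adjusted p = 0.0969), with all 5 exposed libraries below the air mean; with set 180 fitted alone it was called lower (adjusted p = 0.0434). With all air libraries as a single control, Atf4 was called higher in set 022 (0.19, adjusted p = 0.0419). It was also called there without air_022 replicate 2 (0.21, adjusted p = 0.0449), while without MWCNT_022 replicate 5 its change was 0.0072 (adjusted p = 0.984).

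Asns, asparagine synthetase, is a textbook target of ATF4 and was not called in any set. Asns had 34.6, 36.9, 38.2, 37.9 and 36.2 CPM in MWCNT_180, against 32.3 (lowest), 33.1 (median) and 37.4 CPM (highest) in air_180. All 5 exposed libraries were above the air mean, and air_180 replicate 6, at 37.4 CPM, lay among them. The change was 0.13 (SE 0.06, 95% interval 0.00 to 0.25, adjusted p = 0.134). In the other sets it was 0.02, 0.14, 0.00 and 0.00 from the lowest dose upward. With all air libraries as a single control, Asns was called higher in set 022 (0.13, adjusted p = 0.0262).

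In set 022, 1 library of each group stood high for several members and low for others, which was noticed after the values were seen. MWCNT_022 replicate 5 and air_022 replicate 2 had 413 and 386 CPM of Atf4, where the highest of the other libraries of their groups had 322 and 303 CPM. The same libraries had 34.2 and 35.9 CPM of Ddit3, and 191 and 183 CPM of Atf5. They were also the highest of their groups for Yars (69.8 and 56.5 CPM), Farsb (43.9 and 40.8 CPM) and Shmt2 (44.2 and 34.4 CPM). MWCNT_022 replicate 5 was the lowest of its group for several synthetases, among them Eprs (136.9 CPM) and Lars (91.2 CPM). Both libraries were the lowest of their groups for Sesn2, at 41.8 and 38.9 CPM. The alveolar type 2 gene Sftpc also stood high in them, at 14718 and 14509 CPM of the library total, without the scaling of the members' levels. On that measure the other libraries of their groups had 8552 to 12099 CPM in MWCNT_022 and 7986 to 11386 CPM in air_022. The part of Sftpc in the members' levels was not tested. Without air_022 replicate 2, 10 members were called higher in this set, and without MWCNT_022 replicate 5, 3 were, against 7 with all 12 libraries.

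**Figure D4:**
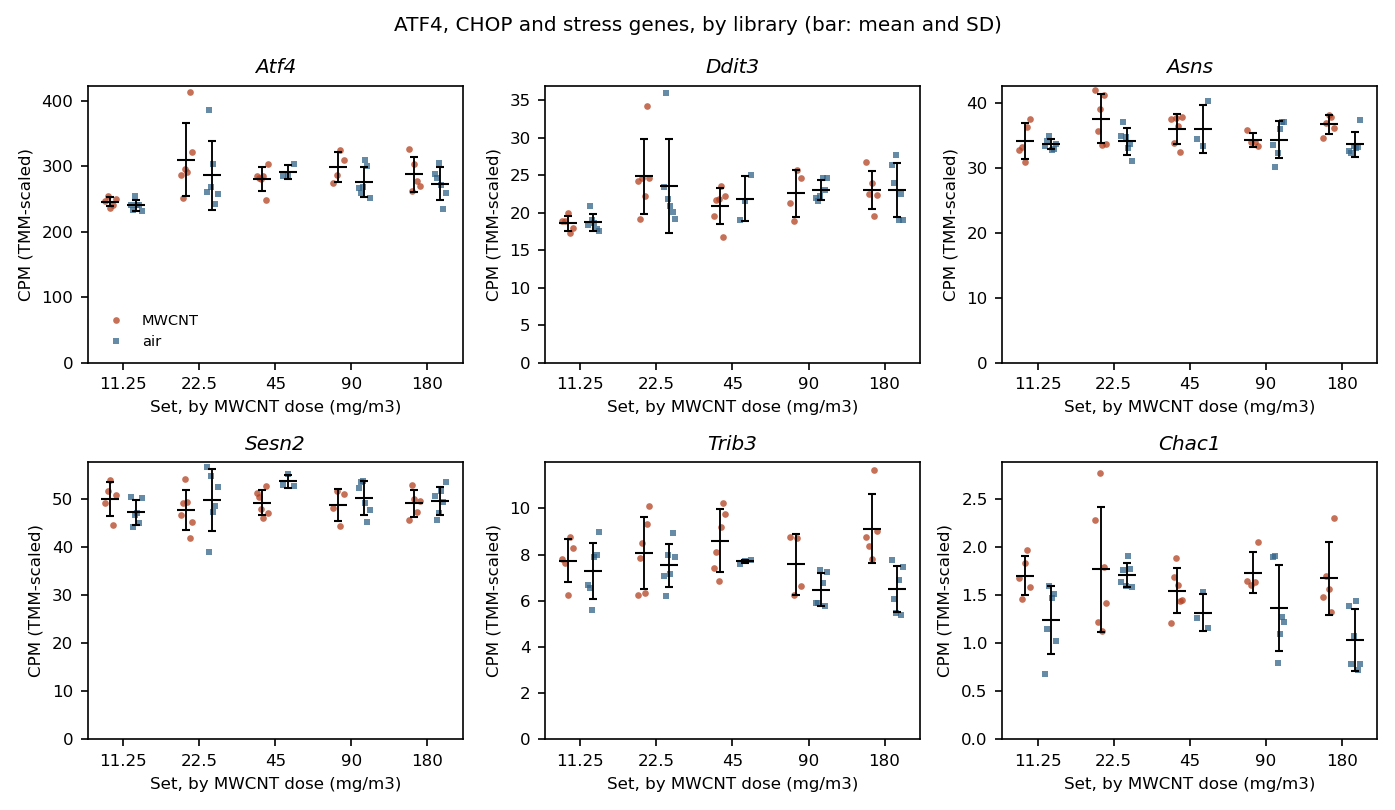
Level of Atf4, Ddit3, Asns, Sesn2, Trib3 and Chac1 in each library (CPM, linear axis from 0) by set, MWCNT left of air, with bars for the mean and SD. Atf4 averaged 288 CPM in MWCNT_180 and 273 CPM in air_180, and Trib3 averaged 9.13 and 6.51 CPM there.

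Among the regulators downstream of ATF4, Trib3, a pseudokinase that restrains ATF4 and CHOP in turn, was called in set 180. Trib3 had 8.78, 8.36, 7.81, 11.7 and 9.02 CPM in MWCNT_180, against 5.38 (lowest), 6.49 (median) and 7.76 CPM (highest) in air_180. Every exposed library was above every air library, the closest being 7.81 and 7.76 CPM, and the change was 0.49 (SE 0.13, adjusted p = 0.00467). In the other sets it was 0.09, 0.10, 0.16 and 0.24 from the lowest dose upward, and none was called.

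Chac1, a glutathione-degrading enzyme of the stress response, had the fewest counts of the members, 7 to 32 in a library. Chac1 had 1.48, 1.69, 1.56, 1.32 and 2.31 CPM in MWCNT_180, against 0.724 (lowest), 0.931 (median) and 1.43 CPM (highest) in air_180. The groups overlapped, the change was 0.69 (SE 0.23, adjusted p = 0.0208), and the call was lost without air_180 replicate 2 (adjusted p = 0.0572), air_180 replicate 5 (adjusted p = 0.0549) or MWCNT_180 replicate 6 (adjusted p = 0.133). It was also lost with the set fitted alone (adjusted p = 0.0529) and with all air libraries as a single control (0.33, adjusted p = 0.185). Chac1 had 1.68, 1.46, 1.83, 1.96 and 1.58 CPM in MWCNT_011, against 0.678 (lowest), 1.31 (median) and 1.59 CPM (highest) in air_011. This set held the second highest change of Chac1, 0.47 (SE 0.22, adjusted p = 0.999), which did not pass the test.

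Sesn2, a leucine sensor that restrains mTORC1, did not pass the test in any set. Sesn2 had 45.6, 52.9, 50.1, 47.4 and 49.7 CPM in MWCNT_180, against 45.7 (lowest), 49.98 (median) and 53.6 CPM (highest) in air_180. The groups overlapped over nearly all of their range, with a change of -0.01 (SE 0.07, 95% interval -0.15 to 0.12, adjusted p = 0.922).

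Ddit4 encodes REDD1, an inhibitor of mTORC1 that stress, hypoxia and glucocorticoid hormone induce. It varied widely between rats of a group, from 21.4 to 111.3 CPM within air_022. Ddit4 had 22.0 (lowest), 24.2 (median) and 47.0 CPM (highest) in MWCNT_022, against 21.4 (lowest), 87.9 (median) and 111.3 CPM (highest) in air_022. Ddit4 had 45.5, 47.0, 49.02, 31.7 and 21.8 CPM in MWCNT_180, against 30.3 (lowest), 94.6 (median) and 119 CPM (highest) in air_180. In both sets the groups overlapped because some air libraries were low: air_022 replicates 5 and 6 had 22.2 and 21.4 CPM, and air_180 replicate 6 had 30.3 CPM. The changes were -1.36 (SE 0.38, adjusted p = 0.019) in set 022 and -1.13 (SE 0.40, adjusted p = 0.0338) in set 180. Ddit4 had 20.1 (lowest), 27.2 (median) and 46.2 CPM (highest) in MWCNT_045, against 46.5, 44.6 and 98.6 CPM in air_045. Ddit4 had 76.6, 69.5, 37.3 and 81.2 CPM in MWCNT_090, against 36.4 (lowest), 45.3 (median) and 81.6 CPM (highest) in air_090. The change in set 045 was -1.11 (SE 0.44, adjusted p = 0.146) and that in set 090 was 0.31 (SE 0.41, adjusted p = 0.72), and in set 011 it was -0.70 (SE 0.40, adjusted p = 0.999); the difference among the sets did not pass the test (adjusted p = 0.268).

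Both Ddit4 calls rested on single libraries. In set 022 the call was lost without air_022 replicate 1 (adjusted p = 0.0513), air_022 replicate 3 (adjusted p = 0.069) or MWCNT_022 replicate 6 (adjusted p = 0.0532). In set 180 it was lost without air_180 replicate 3, 4 or 5 or MWCNT_180 replicate 5 or 6, with adjusted p of 0.0678 to 0.095, with the set fitted alone (adjusted p = 0.0572) and with all air libraries as a single control (-0.75, adjusted p = 0.0858). Genes that respond to glucocorticoid hormone also had unequal levels in these libraries. Zbtb16 and Tsc22d3, chosen from that list after their values were seen, had 188 and 216 CPM in air_022 replicate 5 and 185 and 199 CPM in air_022 replicate 6, where the other 4 air_022 libraries had 4.25 to 8.45 CPM of Zbtb16 and 326 to 460 CPM of Tsc22d3. These genes went opposite ways, with Zbtb16 higher and Tsc22d3 lower in air_022 replicates 5 and 6. The rest of that list is not given by library. The 8 glucocorticoid targets summed to 822 to 1405 CPM in MWCNT_022 and 1090 to 1739 CPM in air_022, and to 942 to 1281 CPM in MWCNT_180 and 934 to 1978 CPM in air_180; none was at 0 in a library. Of these 8 genes 0 were called in set 180, and 1 was called lower in set 022 and 1 in set 090. Their part in the Ddit4 result was not tested, and the labels give no hour at which a rat was killed. Of 10 hypoxia targets, 4 were called higher and 2 lower in set 180, where 12% and 10.9% of all tested genes were.

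**Figure D5:**
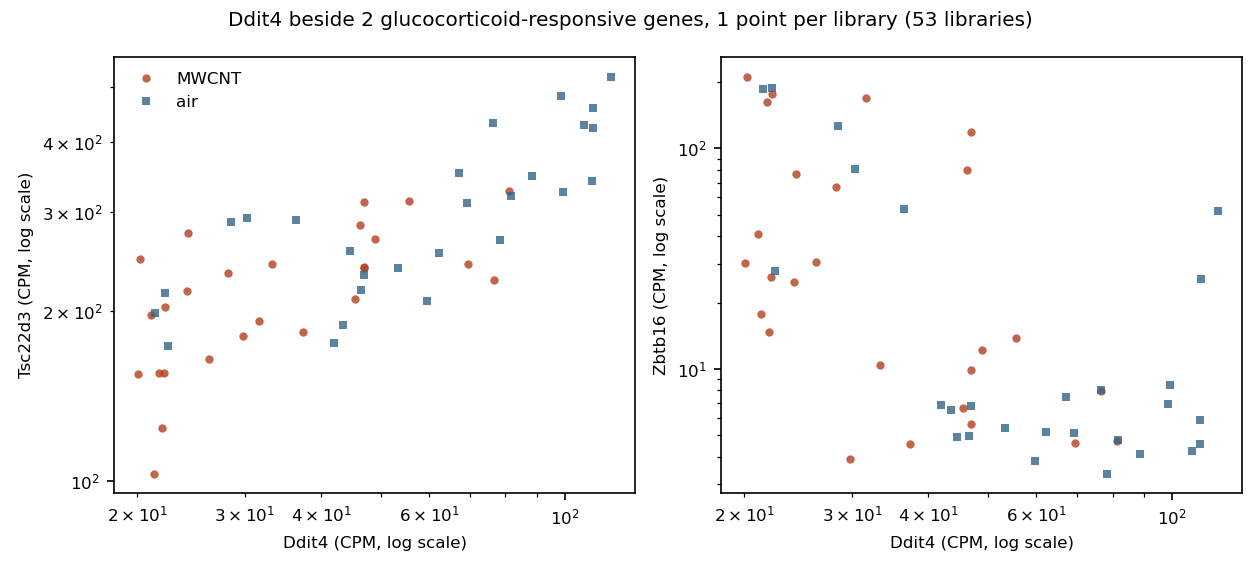
Ddit4 (CPM, log axis) against the glucocorticoid-responsive genes Tsc22d3 (left) and Zbtb16 (right, both CPM, log axes), 1 point for each of 53 libraries, with MWCNT as circles and air as squares. Both MWCNT and air libraries lie at the low end of Ddit4, among them air_022 replicates 5 and 6 at 22.2 and 21.4 CPM.

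The change with dose was tested as a slope of the exposed minus air effect per doubling of dose. It was above 0 and called in 8 of 34 members (5.58% of all genes) and below 0 in 0 (5.07%). The 8 were Slc7a5 at 0.21 per doubling (SE 0.03, adjusted p = 3.55e-07), Mthfd2 at 0.11 (SE 0.03, adjusted p = 0.0173), Cars at 0.08 (SE 0.02, adjusted p = 0.00952), Tars at 0.06 (SE 0.02, adjusted p = 0.00972), Farsb at 0.06 (SE 0.02, adjusted p = 0.0372), Vars at 0.05 (SE 0.01, adjusted p = 0.0117), Eprs at 0.05 (SE 0.01, adjusted p = 0.0201) and Nars at 0.05 (SE 0.01, adjusted p = 0.0177). Phgdh, Yars and Shmt2 were called in several sets and not for a slope (adjusted p = 0.0839, 0.0514 and 0.19). An unequal effect across the 5 sets was called in 3 members (4.92% of all genes): Slc7a5 (adjusted p = 1.05e-05), Vars (adjusted p = 0.00555) and Mthfd2 (adjusted p = 0.0454). Without air_022 replicate 2 that count was 5. Among the 5 air groups, 3 members differed (7.11% of all genes), namely Wars (adjusted p = 0.0121), Vars (adjusted p = 0.0154) and Slc3a2 (adjusted p = 0.0306), and 1 did without air_011 replicate 2, the library with the high Wars level. For Slc7a5 and Mthfd2 the air groups gave adjusted p of 0.956 and 0.638.

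Other genes of the same pathways, listed by function, were counted in set 180, where 12% of all tested genes were called higher and 10.9% lower. Of 4 further components of the cytosolic synthetase system (Mars and the scaffold proteins), 1 was called higher, the scaffold protein gene Eef1e1 (0.23, SE 0.08, adjusted p = 0.0264). Of 16 tested mitochondrial synthetases, which charge tRNA for the organelle, 2 (12.5%) were called higher, near the share of all genes. Vars2 at 0.17 was among these, and 1 was called lower (Cars2 at -0.24). Their median was 0.04, where the cytosolic median was 0.16 and that of all genes -0.01. Of 12 eIF2 kinases, phosphatase subunits and eIF2 and eIF2B subunits, 2 were called higher, the eIF2 alpha subunit gene Eif2s1 (0.27, SE 0.07) and the phosphatase subunit gene Ppp1r15b (0.16, SE 0.05), and none of the 4 kinases was called.

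Of 22 other tested targets of ATF4, 8 were called higher and 2 lower in set 180. Over all tested genes 12% were called higher there and 10.9% lower. The largest changes were the cystine carrier gene Slc7a11 (1.98, SE 0.22, adjusted p = 4.6e-10), the mitochondrial folate enzyme gene Aldh1l2 (1.90, SE 0.35, adjusted p = 3.37e-05), the proline enzyme gene Pycr1 (1.06, SE 0.28, adjusted p = 0.00389) and the hormone gene Fgf21 (-1.01, SE 0.28, adjusted p = 0.00498). Of 9 other tested one-carbon enzymes, 3 were called higher, among them Mthfd1l (0.59) and Shmt1 (0.22), and 0 lower. Of 16 chaperones and other genes of the ATF6 and XBP1 branches of the unfolded protein response, 11 were called higher and 0 lower, among them Sdf2l1 (0.56), Hspa5, which encodes the chaperone BiP (0.38), Manf (0.38) and Dnajc3 (0.37). Of 12 MYC and ribosome biogenesis genes, 9 were called higher and 0 lower.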

How the data were processed

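Poly(A) RNA of lung was sequenced from stranded libraries amplified over 12 PCR cycles without molecular identifiers, so the count alone does not give the precision. The deposited table holds the authors' raw counts per gene symbol for 60 libraries, not normalized. The submitters' processing notes name bcl2fastq 2.19, Trimmomatic 0.35, HISAT2 2.1.0, Cufflinks, SAMtools 1.8 and HTSeq 0.11.2. The genome build, annotation and treatment of shared reads were not given in the sources used here. A spreadsheet date replaced the symbol in 27 rows with 0.205% of the counts, and none of these is a member.

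The 53 libraries without an outlier label were fitted in R 4.3.3 with edgeR 4.0.16 (limma 3.58.1). The filterByExpr step (minimum count 10) passed 15995 of 30045 rows, with 99.9% of the counts. Libraries were scaled by the trimmed mean of M-values (TMM), with factors from 0.963 to 1.03. The robust quasi-likelihood model had 1 coefficient for each of the 10 groups and a common biological coefficient of variation of 0.107. Contrasts tested each MWCNT group against its own air group, the slope of that effect per doubling of dose, its difference among the 5 sets, and the difference among the 5 air groups. All tests were two-sided, with Benjamini-Hochberg adjustment over all 15995 genes and a threshold of 0.05. Each SE is the absolute log2 fold change over the square root of the F statistic, and intervals are 95%. No group held duplicate libraries, 2 libraries of a group differing by a chi-square of at least 2.52 per degree of freedom.

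The 34 members, the other gene lists and the rule for naming genes were chosen with earlier results of these data known. Values per library are given for the members called in set 180 with the largest changes, those with the smallest p among sets and among air groups, and a fixed group of 12; Shmt2, Farsb and Tars were added after their values were seen. From each other list, up to 4 genes called in set 180 with the largest changes were named, and any other gene is named as chosen after its values were seen; Cd68 and Itgax are the called macrophage markers. The test was checked on simulated data. The alternatives were DESeq2's size factors, no filter, a filter of 1 CPM in 10 libraries, all 60 libraries, DESeq2 1.42.0, each set fitted alone, a linear dose scale, pooling all air libraries into 1 control group, and leaving out each library. Motif searches used RefSeq promoter windows of GRCr8, matched by symbol or synonym. A few listed genes and 1 matched sequence are not reported here.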

Additional observations from a re-analysis of the deposited data

Results flagged for a closer look

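Single libraries stood far from the rest of their group in 11 of 144 groups screened over 16 members (7.64%), and chance gives about 1 in 20. Slc7a5 had 24.54 CPM in MWCNT_022 replicate 6, where the next library had 19.8 CPM. Mthfd2 had 9.78 CPM in air_011 replicate 5, where the next had 7.89 CPM. Chac1 had 2.05 CPM in MWCNT_090 replicate 4, and Phgdh had 5.94 CPM in MWCNT_045 replicate 5. Ddit4 had 47.0 CPM in MWCNT_022 replicate 4, where the next had 29.8 CPM. Cars was low in air_090 replicate 6, at 25.02 CPM, where the next had 29.4 CPM. Wars had 269.5 CPM in air_011 replicate 2, where the next had 149.01 CPM. Ddit3 had 34.2 CPM in MWCNT_022 replicate 5 and 35.9 CPM in air_022 replicate 2. Asns had 37.4 CPM in air_180 replicate 6, and Psat1 had 11.7 CPM in air_022 replicate 4.

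The MWCNT effect differed among the 5 sets in 3 members by edgeR's quasi-likelihood test, namely Slc7a5 (adjusted p = 1.05e-05), Vars (adjusted p = 0.00555) and Mthfd2 (adjusted p = 0.0454).

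The 7 libraries with an outlier label entered none of the comparisons in the main results, and only the fits with 60 or 57 libraries used them. The number of the 34 members that lay above every air library used in the same set was 22 in MWCNT_180 replicate 1, 7 in each of MWCNT_090 replicates 5 and 6, and 4 in MWCNT_011 replicate 2. It was 19, 6 and 5 in air_045 replicates 3, 5 and 6. The number below every air library used was 1 in MWCNT_180 replicate 1 and 25 in each of MWCNT_090 replicates 5 and 6. It was 7 in MWCNT_011 replicate 2, and 9, 27 and 16 in the 3 air_045 libraries. The share of all tested genes on either side was not counted, so these counts are not a result about the members. Liver transcripts took 19.8% and 21.2% of the counts in MWCNT_090 replicates 5 and 6 and 18.1% in air_045 replicate 5.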

How the results depend on the processing

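With all 60 libraries, the members called higher numbered 0 in set 022, 1 in set 045, 21 in set 090 and 2 in set 180, and those called lower 0, 1, 0 and 0. Over all tested genes 163 were then called in set 022, 5122 in set 090 and 614 in set 180, against 1087, 1775 and 3660. The slope was then called higher in 1 member and a difference among sets in 12. In set 045 the log2 fold change turned to -0.26 for Cars, -0.28 for Nars, -1.22 for Tars, -0.29 for Yars, -0.14 for Dars, -0.0032 for Farsb, -2.06 for Shmt2 and -0.0227 for Trib3, and in set 090 to 2.91 for Atf5 and 0.44 for Sesn2. With only the 3 liver-rich libraries left out (57 libraries, chosen after seeing the data), Yars in set 045 was -0.0084 and Nars in set 090 lost its call (adjusted p = 0.065).

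With each set fitted alone, 3 members were called higher and 0 lower in set 022, and Chac1 (adjusted p = 0.0529) and Ddit4 (adjusted p = 0.0572) lost their calls in set 180. With all air libraries as a single control, 13 were called higher in set 022 and 13 in set 045, 1 lower in set 045 and 0 in set 180. For that control and for sets fitted alone, the share of all genes called was not counted. These counts are therefore not a result about the members. Ddit3 in set 180 was 0.0665 with the single control, against -0.01 in the main fit, and 0.000349 under the 1 CPM filter. Without a filter, 1 member was called higher in set 045, and Eprs, Nars and Qars lost their calls in set 090 (adjusted p = 0.0904, 0.079 and 0.0508). DESeq2 kept the direction and the call of all 36 called effects of named members and added 3, and DESeq2's size factors kept 35. The causes were not tested.

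With each library left out in turn, the counts called higher ran from 3 to 10 in set 022, 0 to 3 in set 045, 5 to 11 in set 090, 14 to 19 in set 180 and 0 to 0 in set 011, and those called lower from 0 to 1 in sets 022 and 180. The slope counts ran from 7 to 10 higher and 0 to 1 lower, the difference among sets from 2 to 5 and among air groups from 1 to 3. Changes near 0 switched sign, over ranges of -0.0642 to 0.00757 for Atf5 and -0.0735 to 0.0025 for Sesn2 in set 090, and -0.069 to 0.0518 for Ddit3 and -0.0409 to 0.00691 for Sesn2 in set 180.

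No paired analysis was possible because the labels give no replicate numbers shared between groups. Limits are the 3 air libraries in set 045 and 4 exposed ones in set 090, changes of at most 1.26-fold in the synthetases, and the few counts of Chac1 and Phgdh.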
